A study of Canis lupus familiaris with 25 samples.

Results

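The genes described here form the G1 control of the cell cycle: the D-type cyclin genes CCND1, CCND2 and CCND3, the E-type cyclin genes CCNE1 and CCNE2, the kinase genes CDK2, CDK4 and CDK6, the retinoblastoma gene RB1 and the transcription factor gene E2F3. They were named as a set of 10 symbols with earlier results of these data known, so tests of them are no independent support. Every probe set (a group of short probes for 1 transcript) assigned by the platform annotation to exactly 1 of these symbols was taken. This gave 15 probe sets of 42860 on the array, for 10 of 15115 named genes. Of these, 10 probe sets of 7 genes passed a filter on low values, which kept probe sets that read above log2 4 on 6 or more of the 22 arrays in pairs and left 21552 probe sets and 8885 genes for testing. CDK2, CDK6 and E2F3 did not pass it, and neither did the second RB1 probe set.

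In a cycling cell, D-type cyclins are made in response to growth signals and activate CDK4 and CDK6, which phosphorylate the retinoblastoma protein and loosen its hold on E2F transcription factors. E2F then switches on genes of DNA synthesis and the E-type cyclins, whose partner CDK2 phosphorylates the retinoblastoma protein further and drives entry into S phase. In mammary epithelium cyclin D1 is known as a target of hormone and growth factor signals, whereas E-type cyclin transcripts rise and fall with the cell cycle itself.

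The study hybridised 25 Affymetrix canine arrays, 1 for each specimen, from 14 dogs of various breeds aged 9 to 16 years. The arrays held 13 primary mammary carcinomas of simple type, all with lymph node metastases when removed, and 12 specimens of non-neoplastic mammary gland. Both tissues came from 11 dogs, while dogs 1 and 9 gave a tumour alone and dog 8 a gland alone. The series set out to compare the carcinoma with the gland of the same dog. The tumours measured 0.5 to 5 cm, all carried a negative label for ERα, and 11 of 13 carried a positive label for HER-2, the exceptions being dogs 6 and 9. No treatment is named in the labels. Tissue was macrodissected, with 70% epithelial cells of the tumour or gland required, so each array is a mixture of cells.

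Array medians lay between 3.56 and 3.77 on the log2 scale, 47.6% to 48.9% of probe sets exceeded log2 4 on each array, and no array duplicated another (0 identical pairs). Precision is limited by how few dogs there are. EPCAM, an epithelial surface protein, exceeded log2 4 in all 13 tumours and 12 glands. The mean of 7 luminal epithelial markers was 9.04 to 12.36 in tumours and 10.07 to 12.14 in glands, with 1 of 7 called lower and 0 higher. Within dogs this mean was lower in the tumour in 10 of 11, with a difference of -0.52 ± 0.79. Some other cell types differed more. Basal and myoepithelial markers were lower in the tumour in all 11 dogs (4 of 4 tested markers called lower), and so were endothelial markers (6 of 7), adipocyte markers (4 of 5) and mast cell markers (4 of 5). Of the fibroblast markers 2 of 8 were called lower. Skeletal muscle markers averaged 3.44 to 4.32 in tumours but 9.56 to 11.65 in the glands of dogs 7, 10, 11, 12, 13 and 14, with 8 of 9 called lower in the tumour. In the other glands this mean was 3.85 to 4.28. T cell, B cell and plasma cell, and macrophage and neutrophil markers had 0 of 5, 0 of 2 and 0 of 7 called. The part of these cell types in the results below was not tested, apart from the values given without the glands that held muscle transcripts.

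In the carcinomas both E-type cyclin genes and CDK4 rose, and none of the D-type cyclin genes passed the test. CCNE2 was higher by 2.93 ± 1.62 (log2, SD, n = 11 dogs), which is 7.62-fold, CCNE1 by 2.11 ± 1.05 or 4.31-fold, and CDK4 by 0.82 ± 0.59 or 1.77-fold. RB1 differed by less than its spread between dogs. Of the 7 tested genes, 3 were called higher and 0 lower, where called means an adjusted p under 0.05 in a paired limma fit over all 21552 probe sets. In that fit 28.4% of all probe sets were called, and 18.4% of all genes were called higher and 11.1% lower. Rises made up 60.9% of these probe set calls, and 52.5% after a second quantile normalization. The median difference of the 7 tested genes was 0.82, beside 0.10 over all 8885 genes. The share of genes with a difference at least as large was 0.687% for CCNE2, 1.44% for CCNE1 and 10.7% for CDK4. In such bulk tissue, fewer cells of a type and less RNA per cell cannot be told apart.

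**Figure D1:**
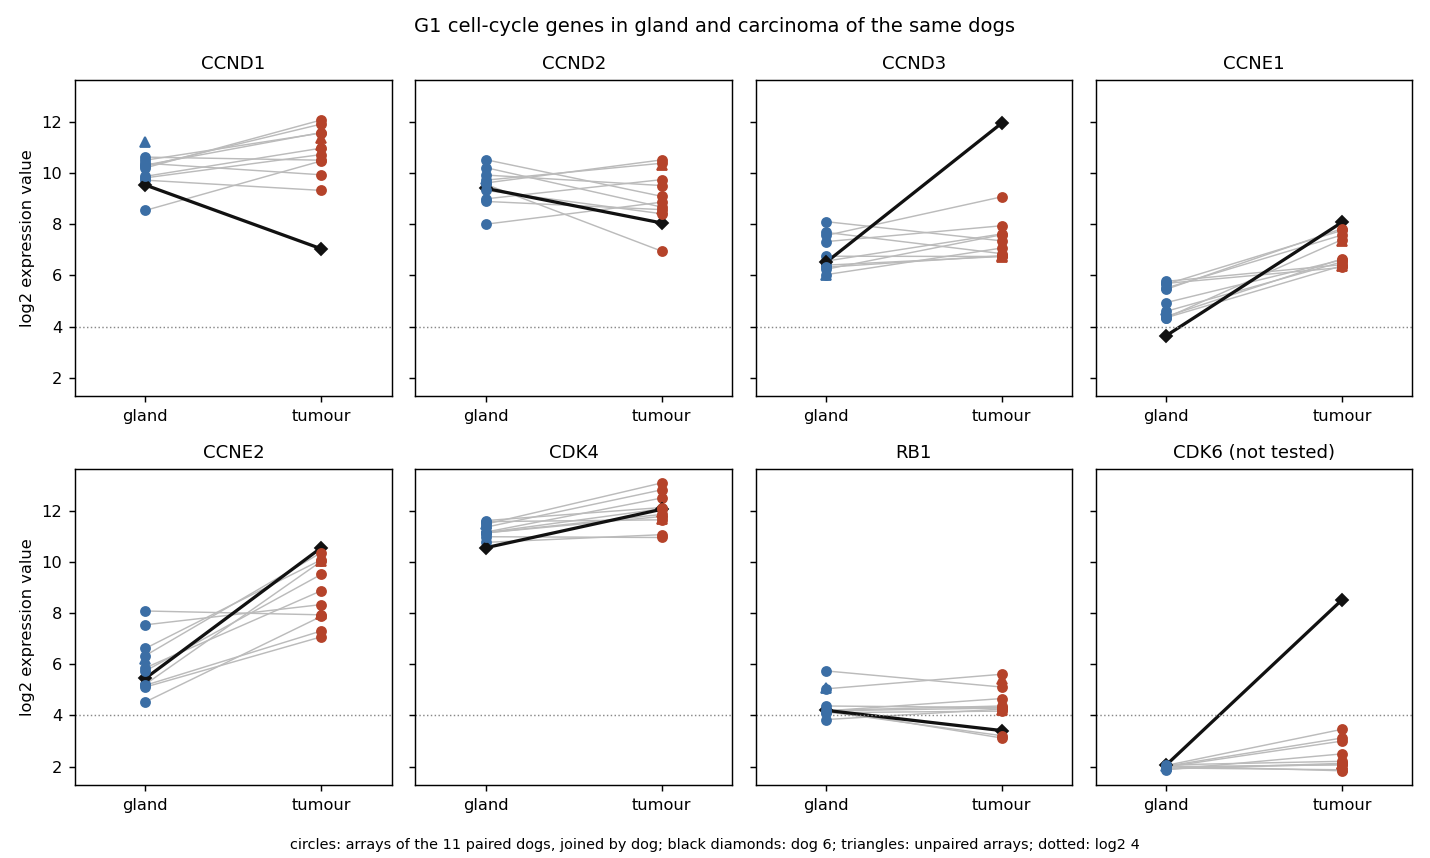
Log2 expression value (vertical axis) of the 7 tested genes and of 1 CDK6 probe set that was not tested, in gland and tumour, with lines joining the tissues of each dog. Black diamonds are dog 6, triangles the unpaired arrays, and the dotted line marks log2 4. All 11 paired tumours lie above all glands for CCNE1, and the tumour of dog 6 stands alone with a CCND1 value of 7.04, a CCND3 value of 11.95 and a CDK6 value of 8.52.

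CCND1 encodes cyclin D1, the D-type cyclin best known from mammary epithelium. Its level was 7.04 at the lowest, 10.72 at the median and 12.07 at the highest in the 11 paired tumours, and 8.54, 10.20 and 10.62 in their glands. The groups overlapped, with tumours on both sides of the glands: 6 tumours lay above every paired gland and 1, that of dog 6, lay below every one. The difference was 0.57 ± 1.33 (limma, adjusted p = 0.245), higher in 7 of 11 dogs, with a 95% interval of -0.20 to 1.35. The second CCND1 probe set gave 0.70 ± 1.24 (limma, adjusted p = 0.140), and the differences of the 2 probe sets had the same sign in 10 of 11 dogs. Dog 6 decided this call. Without it CCND1 was higher by 0.88 ± 0.90 in 10 dogs and passed the test (limma, adjusted p = 0.0293). In the 5 dogs whose glands lacked muscle transcripts, dog 6 among them, the difference was 0.07.

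CCND2 encodes cyclin D2. It was at 6.95, 8.86 and 10.51 (lowest, median and highest) in the paired tumours and at 8.00, 9.56 and 10.52 in their glands. The highest values of the tissues were alike, and 1 tumour lay below every paired gland. The difference was -0.49 ± 1.18 (limma, adjusted p = 0.272), higher in the tumour in 4 of 11 dogs, with an interval of -1.19 to 0.21. The lowest tumour was that of dog 12, with a difference of -2.61 from its own gland, and without this dog the mean difference was -0.28 (limma, adjusted p = 0.501).

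CCND3 encodes cyclin D3, which is prominent in lymphoid cells. It was at 6.74, 7.35 and 11.95 in the paired tumours and at 6.03, 6.56 and 8.10 in their glands. The highest value belonged to dog 6, and the next, 9.07, to dog 12. All other paired tumours lay within the span of the glands. The difference was 0.93 ± 1.69 (limma, adjusted p = 0.143), higher in 8 of 11 dogs, with an interval of -0.06 to 1.91. Leaving out dog 6 reduced it to 0.48 ± 0.82 (limma, adjusted p = 0.177).

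CDK4 encodes a kinase partner of the D-type cyclins. Its level was 10.95, 12.05 and 13.08 in the paired tumours and 10.55, 11.14 and 11.61 in their glands. Most tumours, 9 of 11, lay above every paired gland. The rise of 0.82 (limma, adjusted p = 0.00426) was seen in 10 of 11 dogs, the exception being dog 13 with a difference of -0.03. The second CDK4 probe set rose by 0.79 ± 0.53 (limma, adjusted p = 0.00350), with the same sign as the first in 11 of 11 dogs. Of the 3 D-type cyclins and CDK4, CDK4 alone passed the test over all 11 dogs.

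CDK6 encodes the other partner of the D-type cyclins. Its first probe set stayed between 2.41 and 2.69 in all 25 arrays, at the low end of the array's values. The second was at 1.88 to 2.07 in the glands and at 1.84 to 3.46 in the tumours of 12 dogs, whereas the tumour of dog 6 read 8.52. In that tumour the first probe set read 2.60, so the 2 probe sets disagreed there. With 1 array above log2 4, CDK6 was not tested.

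CCNE1 encodes cyclin E1, an activator of CDK2. Its level was 6.31, 6.65 and 8.08 in the paired tumours and 3.65, 4.94 and 5.77 in their glands. On this probe set every tumour exceeded every gland, and the unpaired arrays kept this order, with 7.33 and 6.37 in the tumours of dogs 1 and 9 and 4.66 in the gland of dog 8. The rise of 2.11 (limma, adjusted p = 0.000536) was present in 11 of 11 dogs, with an interval of 1.47 to 2.75. The second CCNE1 probe set rose by 1.65 ± 1.02 or 3.13-fold (limma, adjusted p = 0.00191), in 10 of 11 dogs. On it the tissues overlapped, with 8 of 11 tumours above every paired gland. Since 4 of its glands were below log2 4, the second fold is less certain than the first, which had 1 such gland.

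CCNE2 encodes cyclin E2. Its level was 7.07, 8.87 and 10.55 in the paired tumours and 4.53, 5.74 and 8.08 in their glands. Here 7 of 11 tumours exceeded every gland, and the overlap came from the glands of dogs 14 and 3, at 8.08 and 7.54. The rise of 2.93 (limma, adjusted p = 0.000744) was seen in 10 of 11 dogs, with an interval of 1.98 to 3.88. The exception was dog 14, with a difference of -0.15. The unpaired tumours of dogs 1 and 9 read 10.04 and 7.98 and the unpaired gland 6.21.

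CDK2, the kinase partner of the E-type cyclins, was measured at 1.84 to 2.60 in all 25 arrays, and E2F3, an activating E2F factor, at 2.27 to 3.12. Both were near the low end of the array's values, where changes in a transcript may not be readable, and neither was tested. Fitted without the filter they gave adjusted p-values of 0.165 and 0.607 (limma). RB1, whose protein restrains E2F, was at 3.12, 4.29 and 5.61 in the paired tumours and at 3.84, 4.20 and 5.74 in their glands. The tumours reached both lower and about as high as the glands. The difference was -0.16 ± 0.60 (limma, adjusted p = 0.565), with an interval of -0.57 to 0.26 and 6 of 11 dogs higher. Without dog 10 it was -0.06 (limma, adjusted p = 0.837). Since 3 tumours and 1 gland were below log2 4, a difference in RB1 may be understated. Its second probe set exceeded log2 4 in 7 of 25 arrays.

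The contrast between the cyclin types was then taken within each dog, as the tumour minus gland difference of an E-type gene minus that of a D-type gene. It compares changes, not levels, because levels of different probe sets are not on a common scale. Changes can depend on the probe set too, since the CCNE1 probe sets gave 2.11 and 1.65. All 6 pairs were positive on average and passed an exact sign-flip permutation test over the 11 dogs after adjustment over the 6 pairs. The test was 2-sided, and the smallest p it can give is 0.000977. The genes were chosen with earlier results of these data known, so these p-values are no independent support.

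Against CCND2 the excess was 3.42 ± 2.41 for CCNE2 and 2.60 ± 1.77 for CCNE1, each in 10 of 11 dogs (exact test, p = 0.00195, adjusted p = 0.00586 for both). Against CCND3 it was 2.00 ± 1.93 for CCNE2 (exact p = 0.00879, adjusted 0.0176) and 1.18 ± 1.38 for CCNE1 (exact p = 0.0146, adjusted 0.0176), each in 9 of 11 dogs. Against CCND1 it was 2.35 ± 2.59 for CCNE2 in 9 of 11 dogs (exact p = 0.0137, adjusted 0.0176) and 1.53 ± 2.22 for CCNE1 in 8 of 11 dogs (exact p = 0.0273, adjusted 0.0273). The last was the weakest pair. Without dog 6, CCNE1 exceeded CCND1 by 0.99 and did not pass (exact test, adjusted p = 0.0547). The call was lost also without dog 2, 4, 10 or 12. In the mean of all tested probe sets of each gene, CCNE1 exceeded CCND1 by 1.24 and CCND3 by 0.95, and neither passed (exact test, adjusted p = 0.0625).

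**Figure D2:**
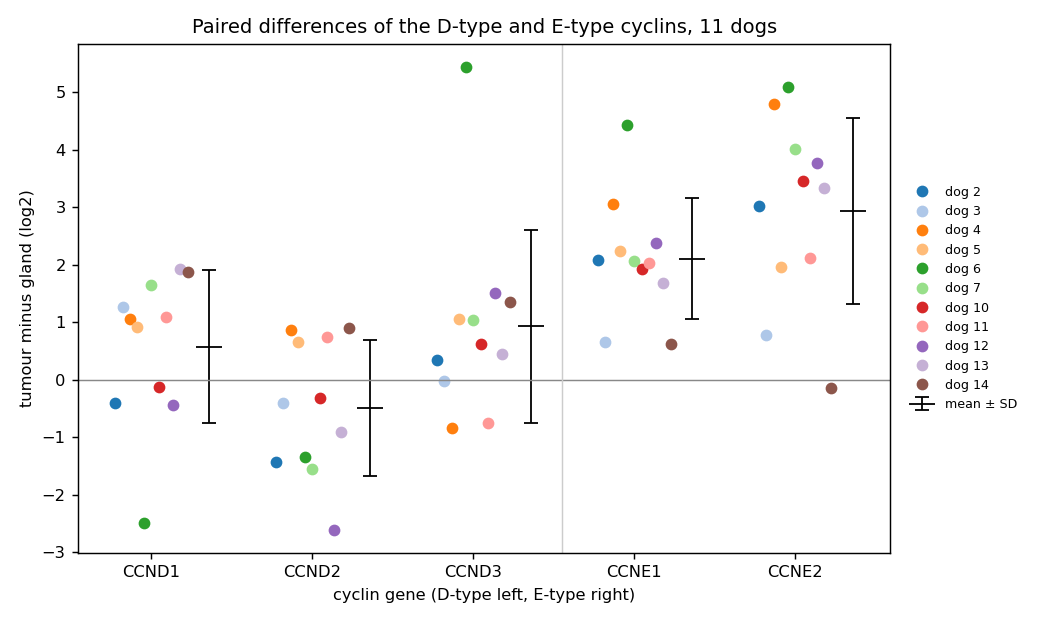
Tumour minus gland difference on the log2 scale (vertical axis) of the 3 D-type and 2 E-type cyclin genes, 1 coloured point for each of 11 dogs, with mean ± SD in black. The D-type differences fall on both sides of 0, while the CCNE1 differences are above 0 in 11 dogs and the CCNE2 differences in 10.

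Within single dogs the order was less uniform than the means. In 7 of 11 dogs both E-type differences exceeded all 3 D-type differences, and in 8 of 11 the largest of the 5 was an E-type one. The exceptions to the first were dogs 3, 6, 13 and 14. In dog 14 CCND1, CCND2 and CCND3 were higher by 1.87, 0.90 and 1.35, against 0.62 for CCNE1 and -0.15 for CCNE2. In dog 3 CCND1 was higher by 1.27, against 0.65 and 0.79 for CCNE1 and CCNE2. In dog 13 CCND1 was higher by 1.93, between CCNE1 at 1.68 and CCNE2 at 3.34.

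The tumour of dog 6 stood apart from the others, and it was the only paired tumour without a positive HER-2 label. Among the 13 tumours its CCND1 value of 7.04 was the lowest (the next was 9.32). Its CCND3 value of 11.95, CCNE1 value of 8.08 and CCNE2 value of 10.55 were the highest. On the second CCNE1 probe set its value of 7.01 was just below the highest, 7.10 in dog 12. The second CDK6 probe set, not tested, read 8.52 in dog 6. The gland of dog 6 had the lowest CCNE1 value on the first probe set, 3.65. The dog combined a CCND1 difference of -2.49 and a CCND2 difference of -1.35 with differences of 5.44 for CCND3, 4.43 for CCNE1 and 5.10 for CCNE2. In this array the T cell marker mean was 7.85, within the tumour range of 4.82 to 10.47. The B cell and plasma cell mean of 9.22, taken over 2 genes, was likewise within its tumour range of 6.81 to 11.07. Whether lymphoid cells had a part in the CCND3 value was not tested. The luminal mean was 9.10, close to the lowest tumour at 9.04, and the proliferation mean was 10.49, level with the highest. Without this dog the rise was 1.87 ± 0.75 for CCNE1, 2.71 ± 1.53 for CCNE2 and 0.75 ± 0.58 for CDK4, and these 3 were still called. All paired tumours left then carried a positive HER-2 label, and a part of HER-2 status was not tested.

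The differences were also taken without the glands that carried muscle transcripts. In the 5 dogs whose glands lacked them, the 3 called genes had differences as large as over all 11 dogs: CCNE1 was higher by 2.50, CCNE2 by 3.13 and CDK4 by 0.90, and none passed the test in that smaller set (limma, adjusted p = 0.0524, 0.0545 and 0.0716). With the muscle marker mean as a covariate, CCNE1 (2.51, adjusted p = 0.0203) and CCNE2 (3.06, adjusted p = 0.0401) stayed called and CDK4 did not (0.89, limma, adjusted p = 0.0766). CCND1 moved from 0.57 to -0.02 with this covariate, so its direction was not settled. Of the 5 dogs whose glands lacked muscle transcripts, dog 6 had a CCND1 difference of -2.49. Dogs 2, 3, 4 and 5 had differences of -0.40, 1.27, 1.06 and 0.91. The covariate was not fitted without dog 6, so the parts of muscle and of this dog in the shift were not tested.

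Genes around the cyclins were described by lists of pathway members, whose counts can be read beside the 18.4% of all genes called higher and 11.1% called lower and the median of 0.10. The lists were chosen with earlier results of these data known, so their counts are a description and no independent support. Some listed genes exceeded log2 4 in fewer than 6 paired glands, so that they passed the filter through the tumours, and for these the difference is uncertain in size and the call is no independent support. Of the S-phase genes known as E2F targets, 19 of 19 tested genes of 21 listed were called higher, with a median difference of 1.78, and 3 of the 19 (CDC45, MCM2 and GINS2) had passed the filter through the tumours. TK1, which salvages thymidine, rose by 4.15 ± 1.91 (17.8-fold, with 4 glands below log2 4) and RRM2, a ribonucleotide reductase subunit, by 3.82 ± 2.03 (14.1-fold), both in 11 of 11 dogs (limma, adjusted p = 0.000289 and 0.000575). CDC45, part of the replicative helicase, averaged 6.39 in the tumours and 3.73 in the glands, 8 of which were below log2 4.

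Among the other pocket proteins, E2F and DP factors, 3 of 7 tested genes of 11 listed were called higher (18.4% of all genes were) and 0 lower, with a median of 0.56. Among the 3, RBL1, which encodes the RB-related protein p107, passed the filter through the tumours: it averaged 5.03 in them and 3.59 in the glands, and all 11 paired glands were below log2 4. The E2F partner genes TFDP1 and TFDP2 rose by 1.18 ± 1.29 and 0.65 ± 0.76. E2F1, E2F7 and E2F8 did not pass the filter, and E2F2 had 0 probe sets naming it alone. Of the MuvB complex with its partners B-MYB and FOXM1, which carry the cell cycle programme from S phase to mitosis, 4 of 6 tested genes of 8 listed were called higher and 0 lower, with a median of 0.83, and 1 of the 4, LIN54, had passed the filter through the tumours. MYBL2 rose by 2.49 ± 1.75, FOXM1 by 2.26 ± 1.75 and LIN9, a MuvB core subunit, by 0.93 ± 0.49.

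Of the CDK inhibitors, which hold the cyclin-dependent kinases back, 3 of 3 tested genes of 7 listed were called higher (18.4% of all genes were). Their median was 1.08. CDKN1A, which encodes p21, rose by 1.91 ± 1.34 or 3.76-fold in 11 of 11 dogs (limma, adjusted p = 0.00280). The INK4 genes CDKN2D and CDKN2C, whose proteins bind CDK4 and CDK6, rose by 1.08 ± 1.20 and 0.88 ± 1.00. These rises were seen in 9 and 8 of 11 dogs (limma, adjusted p = 0.0291 and 0.0310). CDKN1B and CDKN2B did not pass the filter, and CDKN1C and CDKN2A had 0 probe sets naming them alone.

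Of the CDK activators, partners and cyclin turnover genes, 4 of 14 tested of 17 listed were called higher and 0 lower, with a median of 0.26. This is near the share of 18.4% over all genes, and 2 of the 4, CCNA2 and SKP2, had passed the filter through the tumours. CCNA2, the S-phase and mitotic cyclin A2, averaged 8.11 in the tumours and 4.51 in the glands, 6 of which were below log2 4. CDK1, the mitotic kinase, rose by 3.27 ± 1.53 (limma, adjusted p = 0.000329). SKP2, a ubiquitin ligase subunit that targets p27, averaged 5.69 in the tumours and 4.01 in the glands, 8 of which were below log2 4.

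Of the genes listed upstream of the D-type cyclins, 7 of 14 tested of 16 listed were called lower (11.1% of all genes were), 0 were called higher and 7 did not pass, with a median of -0.38. Among those that did not pass, picked out after their values were seen, MYC had a difference of 0.57 ± 0.92 and CTNNB1, which encodes beta-catenin, 0.41 ± 0.58. GATA3, a luminal transcription factor, fell by 3.49 ± 2.89 (limma, adjusted p = 0.00583) and STAT5A, which acts downstream of prolactin, fell by 1.94 ± 1.09 (limma, adjusted p = 0.000872), both in 11 of 11 dogs. PGR, the progesterone receptor, fell by 2.33 ± 2.16 in 9 of 11 dogs (limma, adjusted p = 0.0108). STAT5B, MYCN, ETS2 and FOXO1 were also called lower, FOXO1 with a difference of -0.64 ± 0.69 (limma, adjusted p = 0.0314). The list was not split by whether a gene raises or lowers D-type cyclins, so its count gives no direction of their regulation. ESR1 did not pass the filter, and ETS1 had 0 probe sets naming it alone. Alongside, 3 of 4 tested milk genes were called lower.

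**Figure D3:**
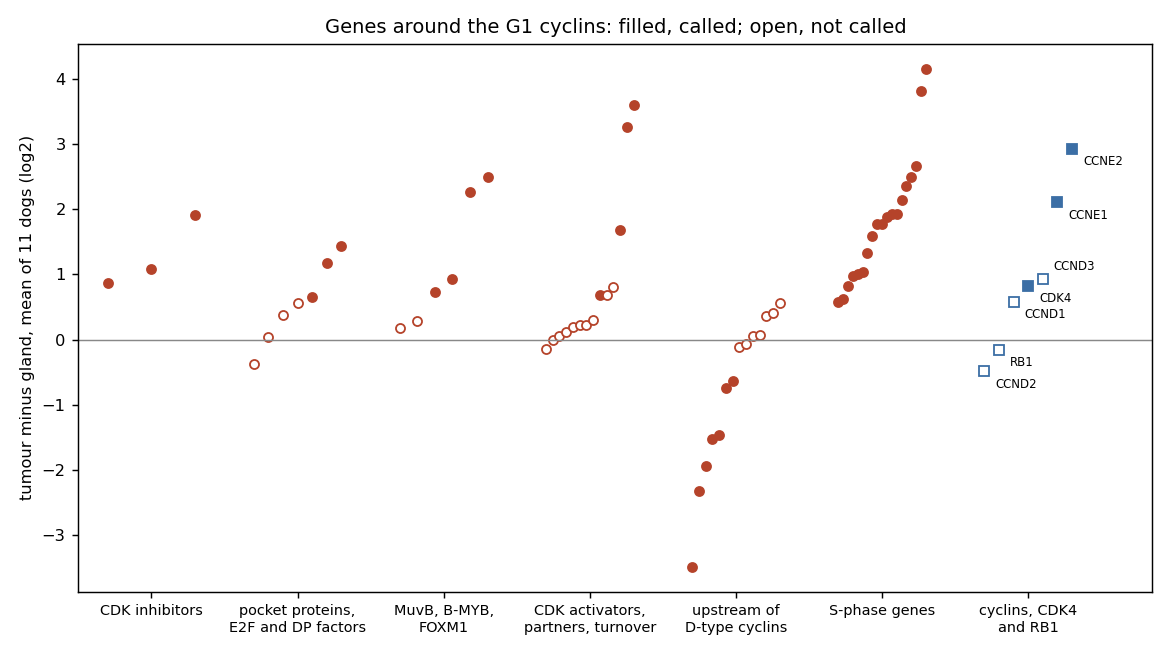
Mean tumour minus gland difference over 11 dogs on the log2 scale (vertical axis), 1 point for each tested gene of the 6 pathway lists, and squares for the cyclins, CDK4 and RB1. Filled points were called and open points were not. All 19 S-phase genes are filled and above 0, and the 7 filled genes upstream of the D-type cyclins are below 0.

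The E-type cyclins were then set beside 7 proliferation genes, TOP2A, PTTG1, PRC1, NCAPG, AURKA, PLK1 and CDC20, in a comparison added after the values were seen. Their mean was 6.46 to 10.49 in tumours and 3.86 to 7.55 in glands, higher in the tumour in 11 of 11 dogs by 3.37 ± 1.83. Of these genes 7 of 7 were called higher, as were 18.4% of all genes. PRC1 exceeded log2 4 in 4 of 12 glands, so it passed the filter through the tumours and its call is no independent support. The highest glands were those of dogs 14 and 3, at 7.55 and 7.34, the same that had the highest CCNE2.

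Across the 13 tumours CCNE2 rose by 0.85 (SE 0.15) per log2 unit of this mean and was called in a limma fit over 21433 probe sets (adjusted p = 0.00971), where 1.12% of probe sets were called in either direction. It was still called without dog 6 (0.82, adjusted p = 0.0400) but not without the lowest and highest arrays, dogs 5 and 10 (0.94, limma, adjusted p = 0.115). CCNE1 (0.29, adjusted p = 0.451), CDK4 (0.31, adjusted p = 0.282) and CCND3 (0.35, adjusted p = 0.737) had positive slopes that did not pass, and CCND1 (-0.37, adjusted p = 0.674), CCND2 (-0.38, adjusted p = 0.519) and RB1 (-0.24, limma, adjusted p = 0.659) negative ones. Without dog 6 the CCND1 slope was -0.04. The difference between the slopes of CCNE2 and the other genes was not tested. In the 12 glands 0.578% of probe sets were called and none of the 7 genes was, with slopes of 0.61 for CCNE2 (adjusted p = 0.151) and 0.42 for CCNE1 (limma, adjusted p = 0.150).

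**Figure D4:**
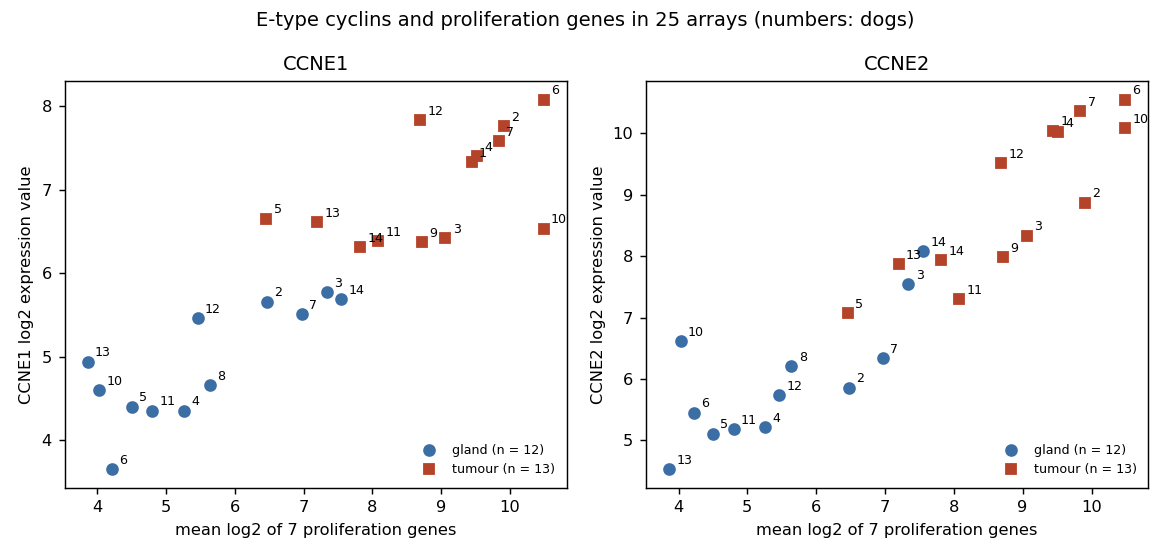
CCNE1 (left) and CCNE2 (right) log2 expression value against the mean log2 value of 7 proliferation genes, in 13 tumours (squares) and 12 glands (circles), with dog numbers. The CCNE2 values of the tumours run from 7.07 in dog 5 to 10.55 in dog 6, and in that plot the glands of dogs 14 and 3 lie among the tumours on both axes.

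Tumour size and survival were examined as slopes within the tumours. Per cm of tumour size, CDK4 changed by -0.28 (SE 0.11, unadjusted p = 0.0195, limma, adjusted p = 0.462) and CCNE2 by -0.51 (SE 0.22, unadjusted p = 0.0336, limma, adjusted p = 0.491), and neither passed the test. The CCNE1 probe sets gave -0.07 and -0.37 (limma, adjusted p = 0.888 and 0.509) and CCND3 gave -0.37, while CCND1, CCND2 and RB1 gave 0.10, 0.16 and 0.21. Of 21433 probe sets limma called 0% for size, and 9.45% had an unadjusted p under 0.05. Per month of postoperative survival, known for 12 dogs at 1 to 9 months, CCNE2 changed by -0.07 and every tested probe set of these genes had an adjusted p of 1.00 (limma). For survival 0% of probe sets were called and 2.46% had an unadjusted p under 0.05. A fit without the variance trend also called 0 for size and 0 for survival.

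For each cyclin, the genes whose 11 paired differences were most like its own were listed by Pearson correlation over the dogs, among all tested genes outside the set. For CCND1 these were IRF2 (0.908), RAP1A (0.889) and VEZT (0.887), for CCND2 FILIP1L (0.943), MEDAG (0.927) and MPRIP (0.921), and for CCND3 CUL9 (0.948), CROT (0.939) and SLC25A40 (0.921). For CCNE1 they were MAP3K9 (0.948), FDX2 (0.903) and ARHGAP18 (0.901), and for CCNE2 CCT7 (0.950), SSNA1 (0.939) and USP16 (0.936). These are the highest of many correlations over 11 dogs, whose genes share arrays, and they are given as a description of likeness. For CCND3 the difference of dog 6, 5.44, lay far above the next, 1.51, so this dog weighs heavily in its correlations. They were not taken without dog 6.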

How the data were processed

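Biotin-labelled RNA was put on Affymetrix canine arrays, per the labels' protocols. The authors deposited 1 normalized log2 value per probe set and array. The submitters' processing notes name Partek, GCRMA and RMA without their roles, and the authors' annotation is not stated in those notes. No further normalization was added. After removal of 175 control and reporter probe sets from 43035, a probe set was tested if it read above log2 4 on 6 or more of the 22 arrays in pairs.

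Names came from the platform annotation (29703 probe sets, 439 with several symbols, which were not named). Of its Entrez IDs 27690 were found in a RefSeq table of the assembly UU_Cfam_GSD_1.0, and 0 symbols changed. Of the tested probe sets 16261 had 1 gene, 255 several and 5036 none. Where a gene had more than 1 tested probe set, the one with the highest mean (25 arrays) stood for it.

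The paired comparison used limma 3.58.1 under R 4.3.3 (eBayes with trend, dog as a fixed block, 2-sided, Benjamini-Hochberg over all tested probe sets at 0.05). Differences are mean ± SD over dogs. Slopes used probe sets that read above log2 4 on 4 or more arrays. The dog's pairing comes from the labels: with tissue means removed, tumour and gland of a dog correlated at 0.119 to 0.456, against a median of -0.06 between dogs. For 5 of 11 tumours the dog's own gland had the highest correlation, so these values alone do not establish the pairing. Named genes were all 10 members, the 3 largest called changes of each list with any opposite one, and the 3 genes most like each cyclin. All called genes upstream of the D-type cyclins were named as well. The members and lists were chosen with earlier results of these data known. The scripts were tested on simulated data.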

Additional observations from a re-analysis of the deposited data

How the results depend on the processing

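The count of called probe sets (6128) stayed within 1.5 times in 18 of 20 alternatives. The exceptions were the 5 dogs without muscle transcripts in the gland (613, of which 247 were higher and 366 lower) and the muscle covariate (781). In those 5 dogs 0 of the 7 tested genes were called. The excess over CCND1, CCND2 and CCND3 there was 2.43, 2.83 and 1.30 for CCNE1 and 3.06, 3.46 and 1.93 for CCNE2. With 5 dogs the exact test cannot give a p below 0.0625, so none could pass. In the mean of all tested probe sets CCNE1 exceeded CCND1 by 1.24 and CCND3 by 0.95 and did not pass. This mean includes the second CCNE1 probe set, which rose by 1.65 against 2.11 for the first. It also includes the second CCND1 probe set, at 0.70 against 0.57. Why the probe sets of a gene differ was not tested. Leaving out each dog in turn, CCNE1 exceeded CCND1 by 0.99 to 1.81, and 4694 to 6167 probe sets were called. Without the replicate block (the dog) limma called 5003 probe sets and 3 of the 7 genes; otherwise the pairing changed no call among them. The 3 called genes became 4 without dog 6, when CCND1 passed, and 2 with the muscle covariate. Over all alternatives CCNE1 was higher by 1.87 to 2.51, CCNE2 by 2.71 to 3.24 and CDK4 by 0.73 to 0.91. A stricter filter left RB1 untested. Values near log2 2 to 4 limit what can be read for CDK2, CDK6, E2F3 and RB1.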
